A study of Homo sapiens with 6 samples.

Results

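Replicating cells make new histones in step with new DNA, and 10 genes that handle those histones or their RNA are described here: SLBP, NPAT, CASP8AP2, ZNF473 and ERI1, which act on histone RNA, and CHAF1A, CHAF1B, ASF1A, ASF1B and NASP, which encode histone chaperones. They were chosen by symbol from a table of 17280 genes, all 10 were found, and all 10 passed the filter of a mean of at least 1 TPM, as did 12195 genes in all. The data are 6 RNA-seq libraries of CAL-27 spheres; the line comes from a human squamous carcinoma of the tongue, and spheres are floating aggregates used to enrich stem-like tumour cells. The 3 libraries titled LF3 are from spheres exposed for 24 h to LF3, a small molecule that blocks the contact of beta-catenin with TCF4, and the 3 libraries titled CON are normal controls, with no vehicle named. The treatment field of the LF3 libraries names elesclomol with copper in place of LF3, so the agent is uncertain, and groups here follow the titles. The study relates Wnt signalling to cuproptosis, a form of cell death driven by copper.

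Messages of replication-dependent histones are made mainly in S phase and end in a conserved stem-loop in place of a poly(A) tail. NPAT and CASP8AP2 gather at the histone gene clusters and are needed for their transcription and for 3′ end formation, SLBP binds the stem-loop and stays with the RNA, ZNF473 joins SLBP to the U7 snRNP that guides the cut, and ERI1 is an exonuclease that binds the same stem-loop and takes part in decay. New H3–H4 is held by NASP, passed to ASF1A or ASF1B, and from there to CAF-1, the complex of CHAF1A, CHAF1B and RBBP4 that loads it onto DNA at the replication fork.

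The stem-loop is shown here because SLBP and ERI1 both bind it. In GENCODE transcripts (release 29, GRCh38) matched by gene identifier to the 58 replication-dependent histone rows of the table, a perfect stem of 6 base pairs that opens with GG and closes a loop of 4 bases starting TT was found after the stop codon in 25. The capitals mark the 16 bases of stem and loop, 5′ to 3′ on the transcript's strand, with 5 flanking bases on each side, for the most abundant such row of each histone class that had one.
H2AC18 (chr1:149842218-149842243, minus strand): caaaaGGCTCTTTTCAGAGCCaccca
H2BC5 (chr6:26158582-26158607, plus strand): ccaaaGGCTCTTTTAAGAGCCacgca
H3C10 (chr6:27810511-27810536, plus strand): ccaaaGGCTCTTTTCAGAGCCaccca
H4C15 (chr1:149860764-149860789, minus strand): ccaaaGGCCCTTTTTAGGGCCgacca
H2AC18 and H3C10 shared the most frequent of 4 versions, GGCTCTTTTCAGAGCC, which 14 of the 25 rows carried. H2BC5 had a loop ending in A, as in 4 rows, and H4C15 had the stem and loop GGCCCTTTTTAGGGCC, as in 3 rows. The remaining 4 rows carried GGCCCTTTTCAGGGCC.

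All 10 genes had more RNA in LF3 libraries. Of the 10, 10 were called higher and 0 lower (limma, Benjamini-Hochberg adjusted p under 0.05), where 53.2% of all tested genes were called higher and 32.3% lower (6489 and 3938 genes, or 5195 and 5205 after median-ratio scaling of the libraries). In all 10, every LF3 library was above every CON library, as in 53.5% of tested genes, while 32.7% lay below. The median log2 fold change, taken as LF3 minus CON after log2(TPM + 1), was 1.62 over the members and 0.24 over all tested genes. TPM is a share of a fixed total, so some changes are also given after median-ratio scaling of the libraries. That scaling brought the median of all genes to -0.0055 and that of the members to 1.35. TPM keeps no depth, no label says that replicates were separate cultures, and p-values therefore rest on library-to-library spread alone, possibly technical.

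**Figure D1:**
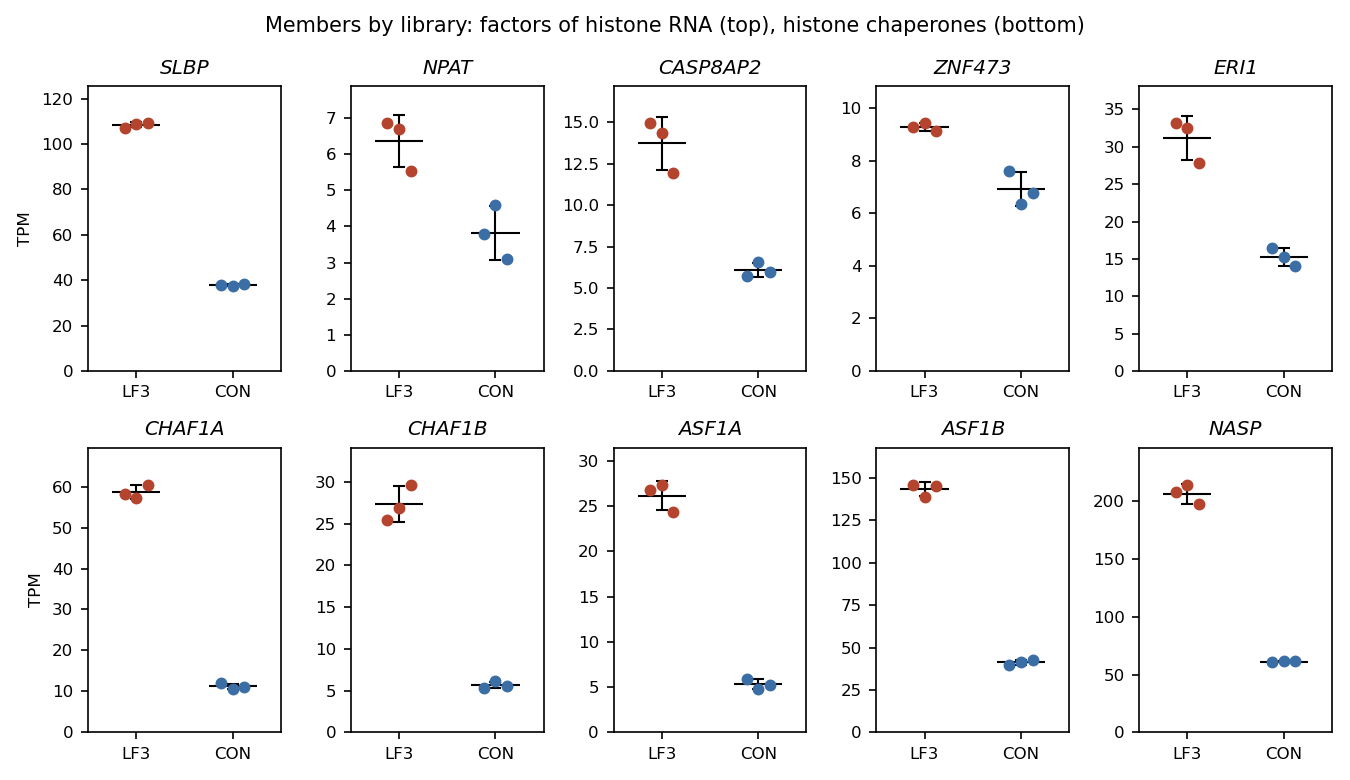
TPM of each of the 10 genes in each library, with 3 LF3 libraries on the left and 3 CON libraries on the right of each panel; points are libraries, horizontal lines are means and error bars are SD, and each vertical axis starts at 0. In every panel the LF3 points lie above the CON points, and the groups are closest together in relative terms for ZNF473, with means of 9.27 TPM in LF3 and 6.91 TPM in CON.

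SLBP, the stem-loop binding protein itself, had 107.22, 109.01 and 109.24 TPM in LF3 libraries, against 38.09, 37.28 and 38.29 TPM in CON libraries. The replicates lay close together in both groups and the groups were far apart. Its log2 fold change was 1.49 ± 0.0397 (limma standard error, 3 libraries a group; adjusted p = 7.07e-11), and 90.9% of tested genes had a smaller one. After median-ratio scaling the SLBP value was 1.22.

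ERI1, which trims the 3′ end of histone RNA and of 5.8S rRNA, had 33.17, 32.48 and 27.81 TPM in LF3 libraries, against 16.41, 15.25 and 14.07 TPM in CON libraries. LF3 replicate 3 was the lowest of its group and still above every CON library. The log2 fold change of ERI1 was 0.98 ± 0.0794 (limma adjusted p = 4.64e-07), and it was 0.72 after median-ratio scaling.

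CASP8AP2, also called FLASH, had 14.94, 14.33 and 11.93 TPM in LF3 libraries, against 5.72, 6.56 and 5.98 TPM in CON libraries. NPAT, a substrate of cyclin E and CDK2, had 6.86, 6.70 and 5.53 TPM in LF3 libraries, against 3.78, 4.60 and 3.11 TPM in CON libraries. Both rose, with the CASP8AP2 groups further apart than those of NPAT. Log2 fold changes were 1.05 ± 0.0915 for CASP8AP2 (limma adjusted p = 8.82e-07) and 0.61 ± 0.121 for NPAT (limma adjusted p = 6.52e-04), or 0.81 and 0.39 after median-ratio scaling. NPAT had the lowest level of the 10 genes in both groups. Its coefficient of variation was 11.4% in LF3, close to the 11.6% of CASP8AP2, and 19.5% in CON, the widest of the 10.

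ZNF473, also called ZFP100, had 9.28, 9.42 and 9.12 TPM in LF3 libraries, against 7.62, 6.35 and 6.75 TPM in CON libraries. The groups did not overlap, though their gap was small. The ZNF473 log2 fold change of 0.38 ± 0.0786 (limma adjusted p = 8.88e-04) lay near the middle of all tested genes, 55.9% of which had a smaller one. Its call was lost after median-ratio scaling (0.14, adjusted p = 0.120) and after quantile normalization (0.17, adjusted p = 0.0781), so that 9 of the 10 genes were called under either scaling.

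The chaperones rose more than the factors of histone RNA in these libraries. Log2 fold changes of the 5 chaperones ran from 1.74 to 2.29 with a median of 2.08, and those of the other 5 genes from 0.38 to 1.49 with a median of 0.98. The ranges did not overlap. After median-ratio scaling, values ran from 1.47 to 2.02 for the chaperones (median 1.84). Those of the others then ran from 0.14 to 1.22 (median 0.72). This difference is between 2 sets of 5 genes chosen by role and was not tested.

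CHAF1A, the large subunit of CAF-1 that binds PCNA, had 58.26, 57.13 and 60.46 TPM in LF3 libraries, against 12, 10.65 and 11.07 TPM in CON libraries. Its partner CHAF1B had 25.40, 26.93 and 29.67 TPM in LF3 libraries, against 5.35, 6.12 and 5.55 TPM in CON libraries. The means of LF3 were 5.22 times those of CON for CHAF1A and 4.82 times for CHAF1B. Log2 fold changes were 2.29 ± 0.0581 for CHAF1A (limma adjusted p = 5.18e-11), above those of 98.1% of tested genes, and 2.08 ± 0.0768 for CHAF1B (limma adjusted p = 7.24e-10). The third subunit, RBBP4, which also serves in other chromatin complexes, had 69.87, 71.82 and 68.22 TPM in LF3 libraries, against 31.67, 32.12 and 29.68 TPM in CON libraries. RBBP4 also rose, by a log2 fold change of 1.14 ± 0.0485 (limma adjusted p = 2.18e-09).

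No difference in the proportion of CHAF1A to CHAF1B was detected beyond the spread of the libraries. Their ratio in TPM was 2.29, 2.12 and 2.04 in LF3 libraries, against 2.24, 1.74 and 1.99 in CON libraries. The groups overlapped, and the difference in log2 ratio was 0.12 (exact permutation test, two-sided, p = 0.400; the smallest p that 3 against 3 allows is 0.1). Leaving out 1 library moved it between 0.022 and 0.21.

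ASF1A and ASF1B encode paralogs, of which ASF1B is known as the one tied to proliferation and ASF1A as a partner of both CAF-1 and HIRA. ASF1A had 26.77, 27.37 and 24.32 TPM in LF3 libraries, against 5.91, 4.85 and 5.25 TPM in CON libraries. ASF1B had 146.03, 138.56 and 145.45 TPM in LF3 libraries, against 39.64, 41.31 and 42.74 TPM in CON libraries. Both rose, and ASF1B was the more abundant in every library. Log2 fold changes were 2.10 ± 0.0800 for ASF1A (limma adjusted p = 9.21e-10) and 1.77 ± 0.0445 for ASF1B (limma adjusted p = 4.69e-11).

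The fold was larger for the less abundant paralog in these libraries. The ratio of ASF1B to ASF1A in TPM was 5.45, 5.06 and 5.98 in LF3 libraries, against 6.71, 8.52 and 8.14 in CON libraries. The groups did not overlap, and the difference in log2 ratio was -0.50, with the smallest p that this test allows for 3 against 3 (exact permutation test, two-sided, p = 0.1). A ratio within a library does not move with library scaling. With a pseudocount of 1 on each value the difference was -0.33.

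NASP, which holds H3–H4 in reserve and binds linker histone, was the most abundant of the 10 genes in both groups. NASP had 207.91, 214.48 and 197.55 TPM in LF3 libraries, against 60.71, 61.60 and 61.43 TPM in CON libraries. All LF3 values stood above 3 times any CON value, and the log2 fold change was 1.74 ± 0.0409 (limma adjusted p = 3.07e-11).

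The order of levels was in part different between the groups. By mean TPM, in LF3 it ran NASP, ASF1B, SLBP, CHAF1A, ERI1, CHAF1B, ASF1A, CASP8AP2, ZNF473 and NPAT. In CON it ran NASP, ASF1B, SLBP, ERI1, CHAF1A, ZNF473, CASP8AP2, CHAF1B, ASF1A and NPAT. In LF3 the neighbours ERI1 and CHAF1B overlapped, as did CHAF1B and ASF1A. In CON each neighbouring pair from ZNF473 through CASP8AP2 and CHAF1B to ASF1A overlapped. LF3 replicate 3 was the lowest LF3 library for 6 of the 10 genes, and also for 6711 of 12195 tested genes.

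**Figure D2:**
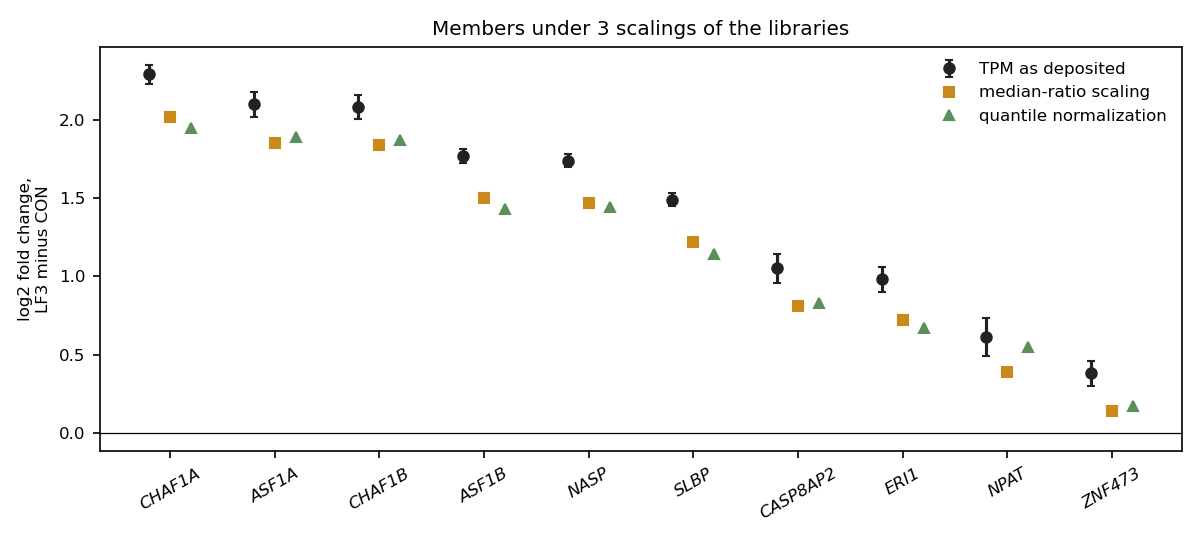
Log2 fold change, LF3 minus CON, of each of the 10 genes with TPM as deposited (circles, error bars are limma standard errors), after median-ratio scaling (squares) and after quantile normalization (triangles). CHAF1A is highest at 2.29 and ZNF473 lowest at 0.38 as deposited; every point stays above 0, and ZNF473 falls to 0.14 and 0.17, values that were not called.

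Genes listed as partners in histone RNA mostly rose, and those called lower as deposited belonged to the U7 snRNP and the decay machinery. Of 35 genes for the transcription, cleavage, export and decay of histone RNA, 29 were higher and 3 lower (26 and 6 after median-ratio scaling). Over all tested genes 53.2% were higher and 32.3% lower. The median log2 fold change was 0.99, against 0.24 over all tested genes. The list holds genes of general function too, such as cyclins, CDKs, cap-binding and Sm proteins. The U7 snRNP carries LSM10 and LSM11 in its ring in place of a pair of spliceosomal Sm proteins. LSM10 had 67.54, 64.94 and 74.38 TPM in LF3 libraries, against 28.82, 30.82 and 34.61 TPM in CON libraries. LSM11 had 4.09, 4.01 and 4.18 TPM in LF3 libraries, against 6.09, 6.65 and 5.98 TPM in CON libraries. LSM10 thus rose (1.11 ± 0.0721 on the log2 scale, limma adjusted p = 7.25e-08) and LSM11 fell (-0.51 ± 0.0781, limma adjusted p = 1.02e-04).

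The Sm proteins that the U7 ring shares with spliceosomal snRNPs rose, with log2 fold changes of 1.56 ± 0.0401 for SNRPB, 1.84 ± 0.0461 for SNRPF and 1.37 ± 0.0290 for SNRPG. DHX9, an RNA helicase, had the smallest adjusted p of the list (limma adjusted p = 6.10e-12) with a log2 fold change of 2.51 ± 0.0465. The remaining falls called as deposited were in decay. TUT7, which adds uridines to RNA ends, averaged 18.4 ± 2.49 TPM in LF3 and 40.0 ± 1.66 TPM in CON libraries (SD, n = 3 each), and XRN1, the cytoplasmic 5′ exonuclease, averaged 19.3 ± 3.11 TPM in LF3 and 26.7 ± 0.840 TPM in CON libraries (SD, n = 3 each). Both fell (limma adjusted p = 4.03e-07 for TUT7 and 0.00121 for XRN1). HINFP, a transcription factor of H4 genes that works with NPAT, averaged 8.01 ± 0.872 TPM in LF3 and 9.20 ± 1.36 TPM in CON libraries and was not called as deposited (-0.17 ± 0.108, limma adjusted p = 0.150), but was called lower after median-ratio scaling (-0.42, adjusted p = 0.00394). The same held for POU2F1, another transcription factor (-0.34 after scaling, limma adjusted p = 5.20e-04), and TUT4 (-0.19, limma adjusted p = 0.0190).

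Other chaperones were also mostly higher, with the HIRA complex split. Of 32 such genes, 26 were higher and 4 lower (22 and 6 after median-ratio scaling), with a median log2 fold change of 0.93. Among all tested genes 53.2% were higher and 32.3% lower. HAT1, which acetylates new H4, had 204.00, 206.48 and 179.23 TPM in LF3 libraries, against 74.29, 73.58 and 72.06 TPM in CON libraries. IPO4, the importin that carries H3–H4 with ASF1 and NASP into the nucleus, had a log2 fold change of 2.57 ± 0.0583, and SSRP1, a subunit of FACT, one of 1.56 ± 0.0369. Log2 fold changes were 2.75 ± 0.0699 for GRWD1, a histone-binding protein that also acts in ribosome assembly, and 2.28 ± 0.0426 for the helicase subunit MCM2, which binds H3–H4. MCM2 is counted among the S phase genes too.

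HIRA, which receives H3.3–H4 from ASF1A for deposition outside replication, had 32.28, 31.55 and 31.43 TPM in LF3 libraries, against 6.79, 7.23 and 5.85 TPM in CON libraries. The partners of HIRA did not follow it. CABIN1 fell (-0.42 ± 0.0667, limma adjusted p = 1.19e-04), and so did UBN2 (-1.32 ± 0.0770, limma adjusted p = 2.92e-08). UBN1 was at 0.068 ± 0.0542 and was not called as deposited (limma adjusted p = 0.259), but was called lower after median-ratio scaling (-0.20, adjusted p = 0.00667). The other falls were SPTY2D1, an H3–H4 binding protein (-0.69 ± 0.0697), and NAP1L1, a chaperone of H2A–H2B (-0.10 ± 0.0396, limma adjusted p = 0.0386).

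Genes of S phase were higher throughout, with log2 fold changes of 0.38 to 3.34. The chaperones stood within that range, and so did SLBP, CASP8AP2, ERI1 and NPAT, with ZNF473 (0.38) at its low end. All 34 tested genes of a list of replication and E2F genes were higher and 0 were lower (32 and 0 after median-ratio scaling), with a median log2 fold change of 1.84. The shares over all tested genes were 53.2% higher and 32.3% lower. E2F1, a transcription factor of S phase genes, averaged 23.7 ± 0.357 TPM in LF3 and 5.91 ± 0.869 TPM in CON libraries (SD, n = 3 each). PCNA, the clamp that recruits CAF-1, had a log2 fold change of 2.75 ± 0.0452, and UHRF1, which reads hemimethylated DNA behind the fork, one of 3.34 ± 0.0488. The proliferation markers moved the same way, as MKI67 averaged 97.1 ± 6.34 TPM in LF3 and 22.1 ± 0.550 TPM in CON libraries and TOP2A 215 ± 18 TPM in LF3 and 81.2 ± 3.81 TPM. In bulk RNA, more cells in S phase and more RNA per cell cannot be told apart, and the part of these markers in the members' rise was not tested.

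**Figure D3:**
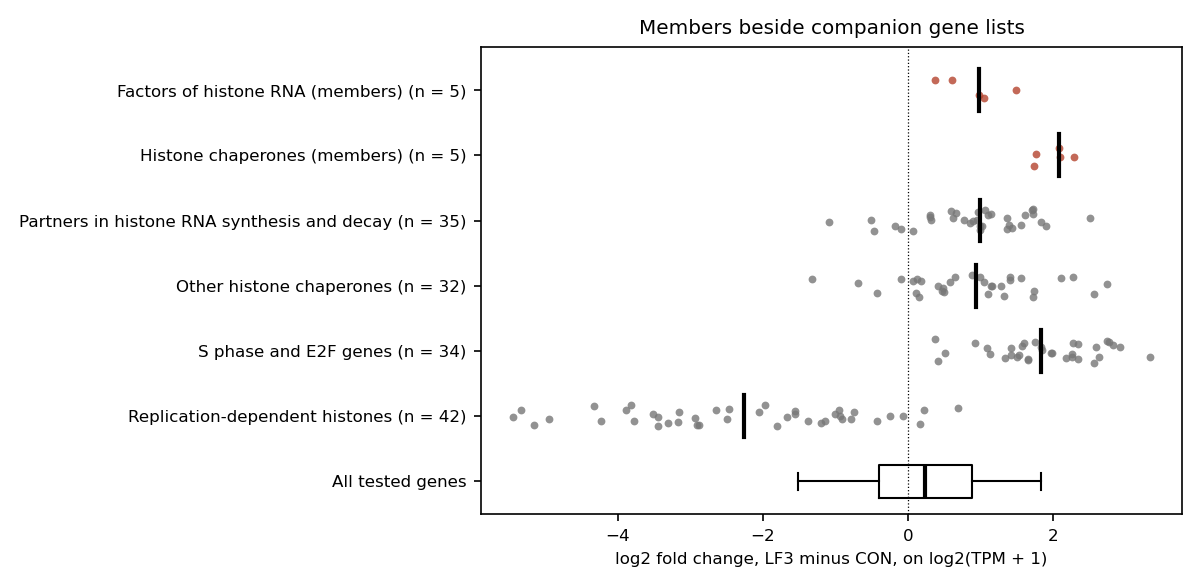
Log2 fold change, LF3 minus CON, of tested genes: the members in red by role, and in grey the partners, other chaperones, S phase genes and replication-dependent histones; black bars are medians, points are spread vertically at random, and the box of all tested genes shows quartiles with whiskers at the 5 and 95 percentiles. The chaperone members lie among the S phase genes, near a median of 1.84, while the histone genes lie mostly below 0, with a median of -2.26.

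RNA of the histone genes themselves moved the other way. Of 42 tested replication-dependent histone genes, 0 were higher and 37 lower (0 and 38 after median-ratio scaling). Of all tested genes, 53.2% were higher and 32.3% lower. Summed over all 58 rows, histone RNA stood at 271, 273 and 259 TPM in LF3 libraries, against 2676, 2697 and 2591 TPM in CON libraries. The groups lay almost 10-fold apart, with a ratio of CON to LF3 means of 9.91. By class, that ratio was 15.1 for H1, 12.3 for H2A, 8.29 for H2B, 3.02 for H3 and 7.38 for H4. Single rows weighed heavily in some classes. H1-2 averaged 667 of the 697 TPM of H1 in CON and 44.5 of 46.1 TPM in LF3. H2AC18 averaged 480 of the 749 TPM of H2A in CON, and H2BC12 53.9 of the 97.9 TPM of H2B in LF3. For the histone genes whose stem-loops are shown above, means were 12.5 ± 0.450 TPM in LF3 and 480 ± 12 TPM in CON for H2AC18, 20.7 ± 1.32 TPM in LF3 and 236 ± 9.90 TPM in CON for H2BC5, 1.93 ± 0.488 TPM in LF3 and 10.5 ± 1.96 TPM in CON for H3C10, and 14.7 ± 1.45 TPM in LF3 and 115 ± 12.3 TPM in CON for H4C15 (SD, n = 3 each). Near-identical copies can share reads, so single histone genes are uncertain.

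Set against SLBP, which binds these messages and rose, the summed histone RNA was lower by a wider margin. The ratio of summed histone TPM to SLBP TPM was 2.53, 2.51 and 2.37 in LF3 libraries, against 70.2, 72.3 and 67.7 in CON libraries. The difference in log2 ratio was -4.83 (exact permutation test, two-sided, p = 0.1, the smallest that this test allows). With the sum lower and SLBP higher in every LF3 library, the groups had to lie apart in this ratio. The test therefore adds nothing to those results. Most replication-dependent histone RNA has no poly(A) tail, and poly(A) selection of the libraries is not stated in the sources used here. How much of the histone RNA of these cells the libraries hold is therefore unknown, and the ratio describes the libraries.

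**Figure D4:**
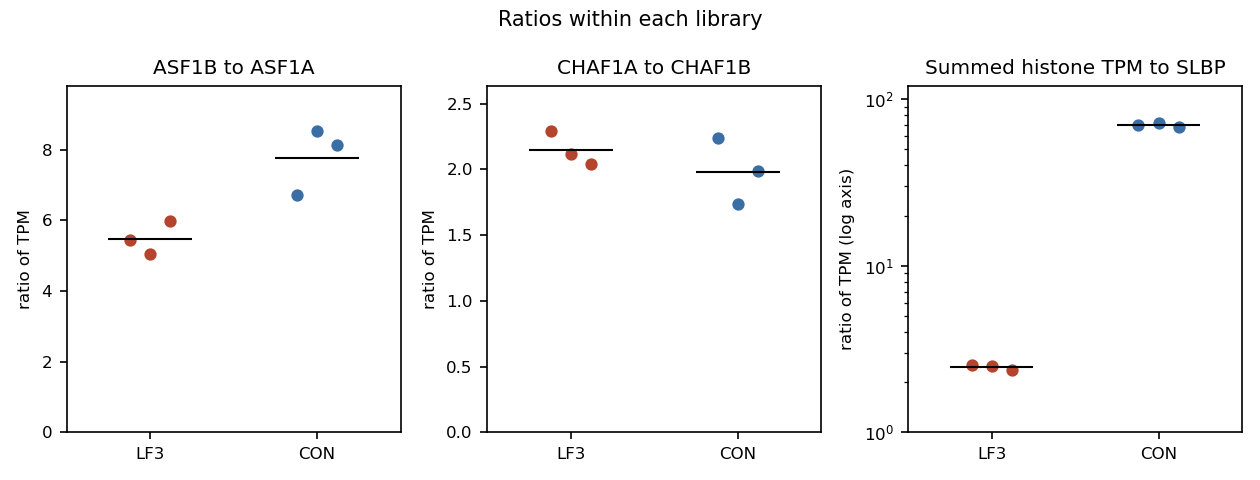
Ratios of TPM within each library, with 3 LF3 libraries on the left and 3 CON libraries on the right of each panel; points are libraries and lines are geometric means, and the third panel has a log axis. The ratio of ASF1B to ASF1A lies at 5.06 to 5.98 in LF3 and 6.71 to 8.52 in CON, that of CHAF1A to CHAF1B overlaps, and that of summed histone TPM to SLBP lies at 2.37 to 2.53 in LF3 and 67.7 to 72.3 in CON.

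Promoter sequence is shown for CHAF1A and CASP8AP2, whose windows, with that of ASF1B, held the most matches in the motif search described next. RefSeq windows of 250 bases before to 50 bases after the gene start (GRCh38.p14) were found for 8 of the 10 genes, and ERI1 and ZNF473 were not matched. On both strands the search covered the E2F-type sites TTTCCCGC, TTTCGCGC, TTTGGCGC and TTTCCCGCC (the last contains the first), the CCAAT box CCAAT, and the CHR forms TTTGAA and TTCGAA. The CCAAT box was in 6 of 8 member windows and in 34.6% of all 35116 windows searched (34.8% of the 14659 windows of tested genes). At least 3 CCAAT boxes were in 2 of 8 and in 3.26% (4.39% for tested genes). Windows outnumber genes in both backgrounds, so these shares are of windows, while each member counted with 1 window. An E2F-type site was in 1 of 8 member windows and in 2.74% of all windows (4.16% for tested genes), and TTTGAA in 1 of 8 and in 15.2% (10.4% for tested genes). Windows of SLBP and CHAF1B held none of these letters. Below are the 250 bases before the start, 5′ to 3′ on the gene's strand, with matches on either strand in capitals; a CCAAT box on the other strand reads ATTGG.
CHAF1A (chr19:4402390-4402639, plus strand): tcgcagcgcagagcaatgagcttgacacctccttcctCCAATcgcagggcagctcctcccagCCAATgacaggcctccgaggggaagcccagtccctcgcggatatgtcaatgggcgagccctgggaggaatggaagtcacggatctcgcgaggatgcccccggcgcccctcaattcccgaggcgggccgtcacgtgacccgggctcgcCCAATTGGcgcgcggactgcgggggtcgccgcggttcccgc
CASP8AP2 (chr6:89829630-89829879, plus strand): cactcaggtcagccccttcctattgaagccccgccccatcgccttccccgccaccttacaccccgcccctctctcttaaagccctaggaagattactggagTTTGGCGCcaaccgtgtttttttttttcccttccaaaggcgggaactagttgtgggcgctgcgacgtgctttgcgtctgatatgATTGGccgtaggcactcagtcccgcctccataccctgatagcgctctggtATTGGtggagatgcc
The ASF1B stretch overlaps an annotated exon of a longer GENCODE transcript and is given by positions alone. In ASF1B, CCAAT boxes on the other strand began 219, 140 and 53 bases before the start and TTTGAA began 27 bases before it. In CHAF1A, CCAAT boxes began 213, 188, 41 and 38 bases before the start, and the last 2 overlap as CCAATTGG. In CASP8AP2, the E2F-type site TTTGGCGC began 149 bases before the start, with CCAAT boxes 65 and 15 bases before it. These matches describe letters in a window and were not tested for binding or for a part in the change.

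The libraries showed the epithelial nature of CAL-27 and little RNA of other cell types. Of 10 markers of squamous epithelium, 9 averaged at least 1 TPM. The sum of all 10 was 1704 to 1738 TPM in LF3 and 1212 to 1236 TPM in CON libraries. Single markers moved both ways. KRT5 averaged 454 ± 6.66 TPM in LF3 and 102 ± 3.43 TPM in CON (SD, n = 3 each). KRT17 averaged 58.8 ± 0.706 TPM in LF3 and 200 ± 8.66 TPM in CON. KRT14, a basal keratin, averaged 0.447 ± 0.143 TPM in LF3 and 0.777 ± 0.0757 TPM in CON. Summed markers lay at 6.81 to 7.69 TPM in LF3 and 14.8 to 15.8 TPM in CON for 6 fibroblast genes and at 2.58 to 3.49 TPM in LF3 and 2.82 to 3.92 TPM in CON for 5 immune genes. The sum of 4 endothelial genes was 6.24 to 7.26 TPM in LF3 and 0.410 to 0.570 TPM in CON, nearly all of it CDH5 in LF3, and KDR was listed at 0 in 3 of the 6 libraries. COL3A1 and DCN were listed at 0 in 5 libraries each and PTPRC in 4. The part of these genes in the members' change was not tested. AXIN2, a direct feedback target of Wnt signalling, averaged 0.143 ± 0.0379 TPM in LF3 and 0.153 ± 0.0503 TPM in CON and was too low to be tested.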

How the data were processed

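Single-end reads of 50 bases were made on a BGISEQ500 from Trizol-extracted total RNA, per the labels' protocols. HISAT, Bowtie2 and GRCm38.p6, a mouse build, appear in the submitters' processing notes, while the table's symbols and identifiers are human; what the reads were aligned to is unknown, and coordinates printed come from RefSeq and GENCODE (release 29), not from the table. The authors deposited TPM per gene and library (6 columns, all used, each summing to 1000000). For strand, poly(A) selection and reads shared between genes, the method is not stated in the sources used here.

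Log2(TPM + 1) was the scale of the test, and it shrinks changes of low genes. Tested were the 12195 genes averaging 1 TPM or more (5085 did not), with limma 3.58.1 in R 4.3.3, with a mean-variance trend, two-sided, Benjamini-Hochberg adjusted over all tested genes, threshold 0.05. The fit was tested on simulated data in which few genes changed, in both directions. That test cannot check the fit where most genes change, as here, or where TPM shares shift together. Ratios were compared by exact permutation over the 6 libraries. Members of a group shared 0.320 to 0.541% identical values and were kept as separate samples. Python 3.11.15 and matplotlib 3.10.9 made the descriptions and figures.

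The members and lists were chosen with earlier results of these data known. All 10 members are named; of each list, the text names up to 4 called genes with the smallest adjusted p in a direction and a fixed set (RBBP4, LSM10, LSM11, HIRA, HAT1, HINFP, E2F1, PCNA). UBN1, POU2F1, TUT4, the marker genes and AXIN2 were named outside that rule, after their values were seen. So were the histone genes with a stem-loop shown, H2BC12 and the histone rows named as low. Not every gene that the rule picks is printed. The stem-loop search was chosen after the table had been seen.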

Additional observations from a re-analysis of the deposited data

How the results depend on the processing

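All 10 members were called higher under 8 of the 10 alternative settings other than leaving out a library: a filter of 5 TPM or none, pseudocounts of 0.1 or 0.5, no trend, robust variances, array weights and the replicate number as a block. Under median-ratio scaling and quantile normalization 9 were called, without ZNF473 (adjusted p = 0.120 and 0.0781). Leaving out each library in turn left 10 called and gave log2 fold changes of 1.48 to 1.5 for SLBP, 0.50 to 0.73 for NPAT, 0.33 to 0.44 for ZNF473 and 2.25 to 2.33 for CHAF1A. Over all 12195 tested genes 10427 were called, and 10094 to 10411 without a library. The other settings ran from 8711 of 9952 tested (filter of 5 TPM) to 11706 of 17278 tested (no filter), so these ends differ in the genes tested. The share of higher calls moved from 6489 higher and 3938 lower to 5195 and 5205 after median-ratio scaling. The difference in the log2 ratio of ASF1B to ASF1A was -0.33 with a pseudocount of 1, which acts more on the lower ASF1A, and -0.60 to -0.43 without a library. The ratio of histone TPM to SLBP was -4.85 to -4.80 without a library. Same-numbered LF3 and CON libraries deviated from their group means with correlations of 0.048, 0.106 and 0.16 across genes. Differently numbered pairs ran from -0.17 to 0.074, all negative except CON replicate 1 with LF3 replicate 2 (0.074). Same-numbered pairs thus leaned higher, but all values were small, and the numbers were not taken to pair the libraries. Deviations in a group cancel out for each gene, so same-numbered and differently numbered correlations must roughly offset each other. The negative values are therefore not separate evidence on pairing. With the replicate block 10522 genes and 10 members were called, and the ratio differences stayed at -0.50, 0.12 and -4.83. TPM gives no depth, so no counting limit could be set for low members such as NPAT.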

Other observations

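Histone rows in which the search did and did not find the perfect stem-loop were described side by side, without a test. Of the 25 rows with one, 22 were tested, 20 were called lower and 0 higher, with a median log2 fold change of -3.10. Of the 33 rows without one, 20 were tested, 17 were called lower and 0 higher, with a median of -1.28. Some of these were low even in CON, such as H3C3, H3C7 and H4C3 (means 1.31, 0.647 and 2.32 TPM). On log2(TPM + 1) such rows can fall only a little. Low rows were also among those with a stem-loop, such as H3C15 (1.57 TPM in CON). H1-2, without a match, averaged 667 TPM in CON and had a log2 fold change of -3.88. The part of level in the gap between the medians was not tested. GENCODE annotates for 16 of the 25 rows a transcript that runs at least 300 bases past the stem-loop. Of these 16, 15 were tested and 13 were called lower, with a median of -2.88, and of the other 9 rows 7 were tested and 7 were called lower, with a median of -3.45. H2BC12 fell by less than most, at 56.46, 55.15 and 50.23 TPM in LF3 libraries, against 69.73, 74.25 and 72.76 TPM in CON libraries (log2 fold change -0.42 ± 0.0528, limma adjusted p = 2.11e-05). These rows were singled out after their values had been seen, and the reason for the differences was not tested.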
